A study of Mus musculus with 10 samples.

Results

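The miR-29 family is a group of microRNAs (miRNAs, short RNAs that pair with messenger RNAs and lower their output) made from 4 hairpins at 2 places in the mouse genome. Its level was followed in small RNA libraries of RPE/choroid/sclera tissue, which is the pigment epithelium, vascular layer and fibrous outer coat of the eye. The 7 members are both arms of miR-29a, miR-29b-1, miR-29b-2 and miR-29c, where miR-29b-1 and miR-29b-2 give one and the same 3p arm. They were taken by name from a table of 1340 mature miRNAs, and all 7 were found. There were 5 libraries of right eyes and 5 of left eyes, all from C57BL/6J animals, wild type, aged 34 days after birth. A goggle with a -20 dioptre lens, which makes a growing eye myopic, had covered one eye of each animal from postnatal day 24 for 10 days, and the fellow eye went without. Each title gives a side and a number (61, 64, 65, 66 or 68), and each number has one right and one left eye. Neither the titles nor the other labels tell under which side the goggle sat, so no library can be called treated or control here. If it sat on the right in some animals and on the left in others, its effect is spread over both sides.

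The 3p arms of the family are known for pairing with the messages of fibrillar and basement membrane collagens, elastin and fibrillin, and so for restraining the build-up of extracellular matrix. In fibroblasts TGF-beta signalling is known to lower the family while collagen output rises. The sclera is a collagen-rich tissue whose matrix is remodelled when an eye lengthens. A hairpin yields a 5p and a 3p arm, of which one is usually kept in the silencing complex and the other is lost. A mature miRNA finds its targets mainly with its seed, bases 2 to 8 from the 5′ end.

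The hairpins lie in 2 clusters (build GRCm38, sequences from RefSeq GRCm38.p6). Mir29a (chr6:31062660-31062747) and Mir29b-1 (chr6:31063023-31063093) are on the minus strand of chromosome 6 with 275 bases between them. No annotated host gene covers them in GENCODE release M21, apart from 2 bases of Mir29b-1 that overlap the noncoding transcript Gm27019. Mir29b-2 (chr1:195037040-195037120) and Mir29c (chr1:195037547-195037634) are on the plus strand of chromosome 1 with 426 bases between them. Both lie whole in an exon of the noncoding transcript A330023F24Rik and, on the opposite strand, in an untranslated region of Cd46. The hairpins are shown with both mature arms in capitals, the 5p arm first, since the comparison of arms rests on them.
Mir29a: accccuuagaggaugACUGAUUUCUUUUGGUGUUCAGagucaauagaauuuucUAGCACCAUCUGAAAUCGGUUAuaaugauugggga
Mir29b-1: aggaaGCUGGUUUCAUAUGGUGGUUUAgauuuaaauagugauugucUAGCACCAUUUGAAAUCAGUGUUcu
Mir29b-2: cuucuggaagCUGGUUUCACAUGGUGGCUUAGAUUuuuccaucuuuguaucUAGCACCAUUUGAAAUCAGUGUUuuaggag
Mir29c: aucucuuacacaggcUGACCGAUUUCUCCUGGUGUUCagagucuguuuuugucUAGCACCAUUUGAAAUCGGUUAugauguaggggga

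The mature arms are shown with the seed in capitals, since it groups the 3p arms and separates the 5p arms. The prefix mmu, for mouse, is left out from here on where the name is repeated.
mmu-miR-29a-3p: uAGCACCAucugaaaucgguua
mmu-miR-29b-3p: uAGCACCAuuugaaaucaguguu
mmu-miR-29c-3p: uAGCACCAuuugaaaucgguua
mmu-miR-29a-5p: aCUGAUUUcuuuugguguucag
mmu-miR-29b-1-5p: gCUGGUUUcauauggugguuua
mmu-miR-29b-2-5p: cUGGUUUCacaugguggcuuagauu
mmu-miR-29c-5p: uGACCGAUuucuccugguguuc

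Among the 1679 mature mouse miRNAs of the RefSeq table, the seed AGCACCA belongs to 3, the 3p arms of the family. With positions counted from 1 at the 5′ end of the first named, miR-29a-3p and miR-29c-3p differ by C10U alone. miR-29c-3p and miR-29b-3p differ by G18A, U21G and A22U, all in the 3′ part, over 22 compared bases. miR-29b-3p is 23 bases long and miR-29c-3p 22. The 5p arms share no seed with each other. After a shift of 1 base, miR-29b-1-5p and miR-29b-2-5p differ by U11C and U19C over 21 compared bases. The mismatches that the authors' alignment allowed are not given in the sources used here, so the division of reads between such close sequences is uncertain. The table has 1 line for miR-29b-3p, whose signal cannot be split between the clusters.

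To show what the shared seed can pair with, the letters TGGTGCT, its complement, were searched on the sense strand of the longest annotated 3′ untranslated region of each protein-coding gene in GENCODE M21. Of 16 collagen genes listed as known or possible targets, 13 held a match (81.2%), as did 5 of 10 other matrix genes of the list (50.0%), against 2755 of 20831 genes in all (13.2%). Matches stood at 0.979 per 1000 bases in the collagen genes and 0.106 per 1000 bases in all genes, with median lengths of 1244 and 976 bases. The list was drawn up with the known targets in mind, so these shares describe it and do not test it. Col1a2, Col6a1 and Col12a1 held no match in this window, and Col4a3 and Col5a1 held the most, 4 each. A site from each of 5 messages is shown with the match in capitals and some of its neighbouring bases, on chromosomes 11, 1, 8, 2 and 5 in this order.
Col1a1, the main chain of scleral type I collagen: gtgggaaggaatttcTGGTGCTa
Col3a1, fibrillar type III collagen: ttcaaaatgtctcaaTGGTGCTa
Col4a1, a basement membrane collagen: gccaccgtcacaacaTGGTGCTa
Col5a1, which nucleates collagen fibrils: tacacttgtctcttgTGGTGCTa
Eln, elastin: cgacctcatcaacgtTGGTGCTa

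Values are the authors' normalised signal, with library sums between 11878152 and 11879036. When miRNAs are ranked within each library, the values at a given rank lie within 1% of each other across libraries for 132 of the top 134 ranks, so an abundant miRNA takes the value of the rank it reaches. For miR-29a-3p 3 libraries share the value 22482 and 2 share 14903. The read depth behind a value is unknown, and no counting interval can be given. Tests used log2(signal + 1), a scale that understates the change of low miRNAs, on the 588 miRNAs with a mean signal of at least 10. Of the 7 members, 6 passed this filter and miR-29b-1-5p did not. Nothing in the labels says that libraries of a side came from separate litters or runs, so p-values measure the spread between these libraries. Of the pigment epithelium markers, miR-204-5p had the same value in all 10 libraries, 1931810, and so shows presence but no variation, while miR-211-5p lay between 27249 and 57345 in right and between 37005 and 57345 in left eyes. Summed fibroblast and smooth muscle markers gave 845 to 1023 k in right and 851 to 1074 k in left eyes (k stands for 1000 units of signal), and leukocyte markers 19.5 to 24.0 k in right and 18.8 to 23.6 k in left eyes. Of the fibroblast and smooth muscle sum, 86.7% was miR-143-3p, an abundant miRNA that ran from 740063 to 939897. From the same list miR-199a-5p ran from 8112 to 14903, so the narrow range of the sum does not hold for each marker. Markers of other tissues were present too, and their sums varied more. Surface epithelium markers summed to between 25.7 and 207 k in right and between 65.7 and 246 k in left eyes, and striated muscle markers to between 42.3 and 78.5 k in right and between 25.9 and 104 k in left eyes. Retina and neuron markers, with 0 of the 8 at 0 in any library, summed to 1383 k in right eye 68 and to between 228 and 514 k in the other 9 libraries. Of this sum, 77.4% was miR-182-5p. None of the surface epithelium or striated muscle markers was at 0 in any library.

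The 3p arms carried most of the signal. In each library they held between 98.7% and 99.4% of the signal summed over the 7 members. mmu-miR-29a-3p was the highest member at 18425 ± 4470 (SD, n = 10 libraries) and ranked between 50 and 67 in a library. mmu-miR-29c-3p followed at 6400 ± 2514 with ranks between 71 and 101. mmu-miR-29b-3p, which has the same seed and a hairpin in each cluster, stood at 293 ± 60.0, with ranks between 219 and 269. The 5p arms were lower, with mmu-miR-29a-5p at 142 ± 15.0, mmu-miR-29b-2-5p at 55.0 ± 11.6 and mmu-miR-29c-5p at 35.3 ± 7.96. The 7 members together summed to 20539, 17722, 29682, 29381 and 34186 in right eyes 61, 64, 65, 66 and 68, and to 17368, 20184, 25670, 22490 and 36318 in left eyes in the same order, on average 0.213% of a library.

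**Figure D1:**
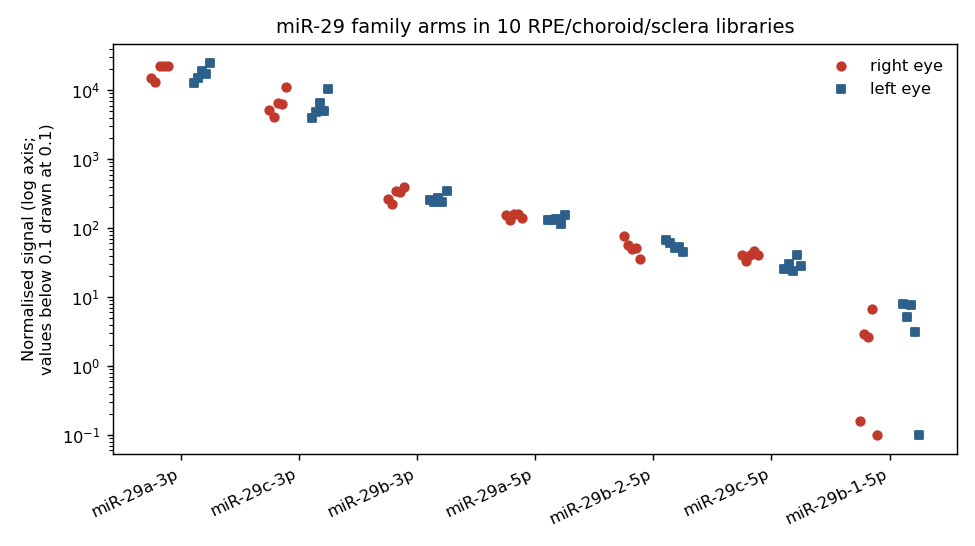
Normalised signal of the 7 members in 10 libraries on a log axis, circles for right and squares for left eyes, ordered by mean, with values below 0.1 drawn at 0.1. The 3p arms of miR-29a and miR-29c lie at 3976 and above, and every 5p arm lies below 160.

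The order of these levels was nearly the same in every library. miR-29a-3p lay above miR-29c-3p, miR-29c-3p above miR-29b-3p, miR-29b-3p above miR-29a-5p and miR-29a-5p above miR-29b-2-5p in 10 of 10 libraries each. miR-29b-2-5p exceeded miR-29c-5p in 9 of 10, with right eye 68 the exception at 36.1 against 40.7. Their log2 difference averaged 0.63 ± 0.48 (SD) and ran from -0.17 to 1.37 across libraries, so the order did not hold in every library. It was not tested. The step from miR-29c-3p to miR-29b-3p was the largest among the members that passed the filter, a log2 difference of 4.38 ± 0.29.

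mmu-miR-29b-1-5p was barely present. Its signal in right eyes 61, 64, 65, 66 and 68 was 0.160, 2.93, 2.66, 6.80 and 1.04e-12, and in left eyes of the same numbers 8.08, 5.12, 7.63, 3.13 and 2.25e-09. Both eyes of number 68 were thus at practically 0, while no library was listed at exactly 0.

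The members of the chromosome 6 cluster were compared with their counterparts of the chromosome 1 cluster inside each library. For the abundant arms the ratio of miR-29a-3p to miR-29c-3p was 2.93, 3.17, 3.41, 3.57 and 2.03 in right eyes 61, 64, 65, 66 and 68. It was 3.24, 3.09, 2.91, 3.45 and 2.37 in left eyes in the same order. The chromosome 6 member was higher in all 10 libraries, and number 68 had the lowest ratio on both sides. The mean log2 difference was 1.57 ± 0.26 (SD, n = 5 numbers, both eyes averaged). The exact two-sided sign-flip permutation gave p = 0.0625, the smallest that 5 numbers allow, and adjusted p = 0.0625 over the 3 pairs compared.

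The passenger arms of the same hairpins stood in a like relation. miR-29a-5p was 3.80, 3.90, 3.85, 3.41 and 3.42 times miR-29c-5p in the right eyes and 5.06, 4.44, 5.81, 2.80 and 5.41 times in the left eyes, in the order 61, 64, 65, 66 and 68. Of the left eyes, 4 lay above every right eye, and left eye 66 lay below every right eye. The mean log2 difference was 2.0 ± 0.23 (SD, n = 5 numbers), with exact permutation p = 0.0625 and adjusted p = 0.0625. For the miR-29b passenger arms the order was turned, since miR-29b-1-5p of chromosome 6 lay below miR-29b-2-5p of chromosome 1 in 10 of 10 libraries. Their mean log2 difference was -3.98 ± 0.94 (SD, n = 5 numbers), again with exact permutation p = 0.0625 and adjusted p = 0.0625. Its size depends on the pseudocount, since miR-29b-1-5p is near 0. The share of miR-29b-3p that came with each passenger arm is not measured by these values.

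The right and left eyes were compared next. miR-29a-3p had 14903, 13129, 22482, 22482 and 22482 in right eyes 61, 64, 65, 66 and 68, and 12901, 14903, 18739, 17084 and 25150 in left eyes in the same order. The sides overlapped fully, with 3 of 5 numbers higher in the right eye. The log2 difference, right minus left, was 0.10 (95% interval -0.14 to 0.35, adjusted p = 0.967 in limma).

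miR-29c-3p had 5093, 4145, 6596, 6302 and 11089 in the right eyes and 3976, 4816, 6439, 4953 and 10593 in the left eyes, in the same order. Here 4 of 5 numbers were higher in the right eye, and the sides overlapped. The difference was 0.12 (95% interval -0.12 to 0.36, adjusted p = 0.967 in limma).

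miR-29b-3p had 268, 221, 351, 332 and 399 in the right eyes and 258, 238, 272, 240 and 347 in the left eyes. It was higher in the right eye in 4 of 5 numbers, by a log2 difference of 0.19 (95% interval -0.07 to 0.46, adjusted p = 0.967 in limma). For each of the 3 arms that share the collagen seed, the interval excludes a 2-fold difference in either direction between sides.

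Of the 5p arms, miR-29c-5p had 41.3, 33.9, 41.3, 46.6 and 40.7 in the right eyes and 25.7, 29.8, 23.6, 41.3 and 28.7 in the left eyes. It was higher in the right eye in 5 of 5 numbers, while left eye 66 reached the right-eye range. The log2 difference was 0.46 (95% interval 0.06 to 0.86) with an unadjusted p of 0.0299 and an adjusted p of 0.967 in limma, so it did not pass. Among all miRNAs tested, 12 (2.04%) were higher in the right eye in all 5 numbers.

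miR-29a-5p had 157, 132, 159, 159 and 139 in the right eyes and 130, 132, 137, 115 and 155 in the left eyes, a difference of 0.16 (adjusted p = 0.967 in limma). miR-29b-2-5p had 77.5, 57.5, 49.5, 52.1 and 36.1 in the right eyes and 67.9, 60.3, 51.5, 53.1 and 45.0 in the left eyes, a difference of -0.05 (adjusted p = 0.967 in limma). The sides overlapped for both. Of the 6 members tested, 0 passed in limma. The same holds for all 588 miRNAs, of which 0 passed (0%), while 13 (2.21%) had an unadjusted p under 0.05, miR-29c-5p among them. Of the 13, 10 were higher in the right eye (1.7% of all tested). The members' differences were positive in 5 of 6, where 321 of all 588 were positive (54.6%). Markers of other tissues had mean differences between the sides too, although none passed in limma. All 8 surface epithelium markers were on average lower in the right eyes, with a median difference of -0.98 on the log2 scale. All 4 striated muscle markers were lower as well, by a small median of -0.16, with unadjusted p between 0.437 and 0.919 in limma. Of the retina and neuron markers 6 of 8 were higher in the right eyes, miR-9-3p by 0.50 and miR-9-5p by 0.30 (unadjusted p of 0.0209 and 0.0387, adjusted p = 0.967 each in limma). Their part in the members' values was not tested.

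**Figure D2:**
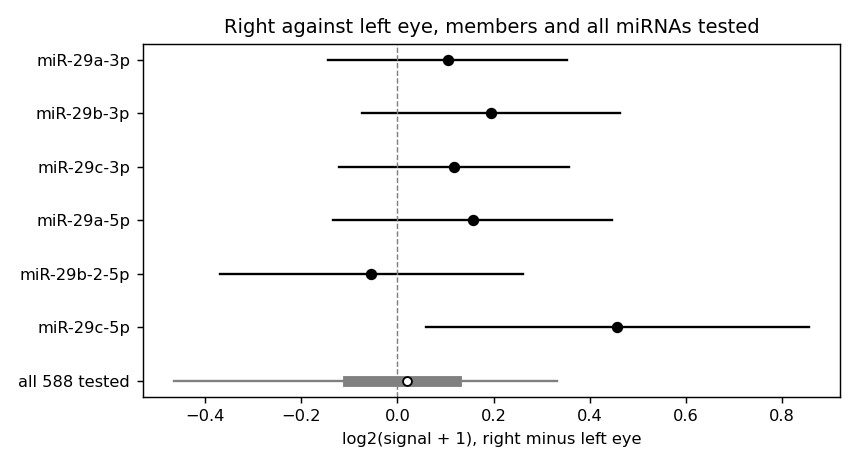
Difference in log2(signal + 1) between right and left eyes for the 6 members tested (points, with 95% intervals from limma), and for all 588 miRNAs tested (circle at the median, thick bar for the 25th to 75th and thin bar for the 5th to 95th percentile). The interval of miR-29c-5p lies above 0 without adjustment, and the other 5 cross 0.

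Of the 6 members tested, miR-29c-3p alone passed the test between the title numbers. It averaged 4535 over the eyes of number 61, 4480 in 64, 6518 in 65, 5628 in 66 and 10841 in 68. The span of 6360 between these means exceeded 1349, the widest right-to-left gap within any number. The moderated F-test over the 5 numbers in limma gave an adjusted p of 0.0430, and miR-29c-3p was 1 of 7 miRNAs to pass among the 588 tested (1.19%). An unadjusted p under 0.05 was found for 4 of the 6 members and for 137 of all miRNAs (23.3%). In bulk tissue, fewer cells of a type and less RNA per cell cannot be told apart.

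This call is a narrow one. Without number 68 the adjusted p was 0.367 in limma and without right eye 68 alone it was 0.212. It was also lost without number 61 (0.115), 64 (0.106) or 65 (0.0797), where the fit has fewer libraries.

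Some markers of other tissues had high means in number 68 as well, some of them in a single eye and some in both. All 8 retina and neuron markers and all 4 striated muscle markers had their highest number mean in 68, as did 167 of all 588 miRNAs (28.4%). So did 4 of 6 leukocyte, 2 of 3 red blood cell, 2 of 8 surface epithelium and 1 of 5 fibroblast and smooth muscle markers. It was 0 of 2 for endothelium and 0 of 2 for pigment epithelium. The retina and neuron markers summed to 1383 k in right eye 68 and to 312 k in left eye 68, the lowest of the left eyes. The muscle markers summed to 50.3 k in right eye 68, where right eyes ran from 42.3 to 78.5 k, and to 104 k in left eye 68. The leukocyte marker miR-223-3p had 538 in right eye 68 and 660 in left eye 68, the highest of each side (unadjusted p = 0.0320, adjusted p = 0.185 between numbers in limma). So it was for the red blood cell marker miR-144-3p, at 383 and 337 (unadjusted p = 0.0248, adjusted p = 0.166 in limma). Of the others, 2 of 6 leukocyte markers had their highest number mean in 64 and 1 of 3 red blood cell markers in 61.

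Within the retina and neuron list, miR-9-3p, a neural miRNA, had 669, 427, 1073, 1092 and 1159 in right eyes 61, 64, 65, 66 and 68 and 494, 452, 551, 577 and 969 in left eyes in the same order. Its partner arm miR-9-5p had 16083, 11952, 19089, 19988 and 26150 in the right eyes and 13581, 12901, 17084, 13129 and 17084 in the left eyes. Both were highest in number 68 and lowest in 64, as miR-29c-3p was, with an unadjusted p of 0.0155 for miR-9-3p and 0.0364 for miR-9-5p between numbers (adjusted p = 0.129 and 0.190 in limma). The other 6 markers of this list had an unadjusted p above 0.05 in limma. They were also highest in number 68, but lowest in 61 or 66 and not in 64. Of the muscle list, miR-1a-3p had number means of 8.27, 8.61, 9.30, 9.29 and 10.33 on the log2 scale in the order 61, 64, 65, 66 and 68 (adjusted p = 0.406 in limma). It held only 1.25% of the signal of its list. The bulk, 91.5%, was miR-133a-3p, with means of 15.38, 15.77, 15.44, 15.34 and 16.01 in that order (adjusted p = 0.829 in limma). Number 64 was next below 68 there and not low. This also held for miR-206-3p, and for miR-133b-3p as well. The part of these tissues in the level of miR-29c-3p was not tested.

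miR-29a-3p followed a like pattern in smaller measure. Its number means were 13902 in 61, 14016 in 64, 20610 in 65, 19783 in 66 and 23816 in 68, a span of 9914 where the widest gap within a number was 5399. It did not pass (adjusted p = 0.0941 in limma). miR-29b-3p had 263, 229, 312, 286 and 373 in the same order and did not pass either (adjusted p = 0.210 in limma). All 3 arms with the shared seed had their highest number mean in 68 and their lowest in 61 or 64.

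The 5p arms had other orders. miR-29b-2-5p had its highest mean in number 61, at 72.7, and its lowest in number 68, at 40.5, with 58.9, 50.5 and 52.6 in 64, 65 and 66 (adjusted p = 0.210 in limma). miR-29a-5p was nearly level, with number means between 132 and 148 (adjusted p = 0.934 in limma), and miR-29c-5p ranged from 31.9 to 43.9 (adjusted p = 0.611 in limma). The median range of number means over the 588 miRNAs was 0.67 on the log2 scale. Against this, the range was 1.28 for miR-29c-3p, 0.78 for miR-29a-3p, 0.70 for miR-29b-3p, 0.83 for miR-29b-2-5p, 0.48 for miR-29c-5p and 0.15 for miR-29a-5p.

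**Figure D3:**
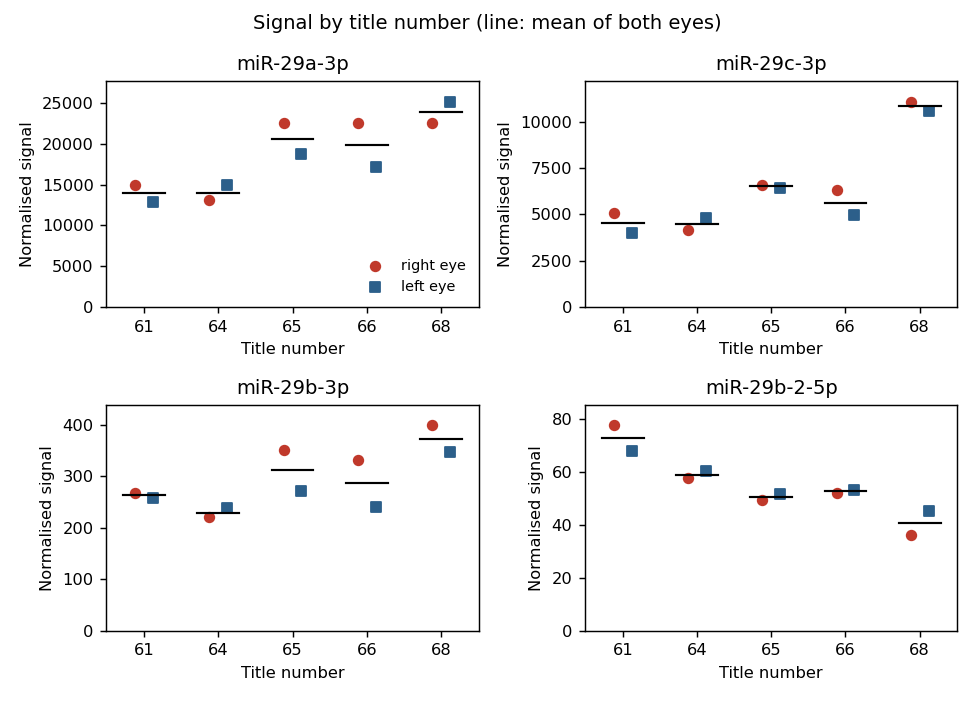
Normalised signal of 4 members by title number, circles for right and squares for left eyes, with a line at the mean of both eyes. The 3p arms are highest in number 68, where miR-29c-3p reaches 11089 in the right and 10593 in the left eye, and miR-29b-2-5p is lowest there.

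**Figure D4:**
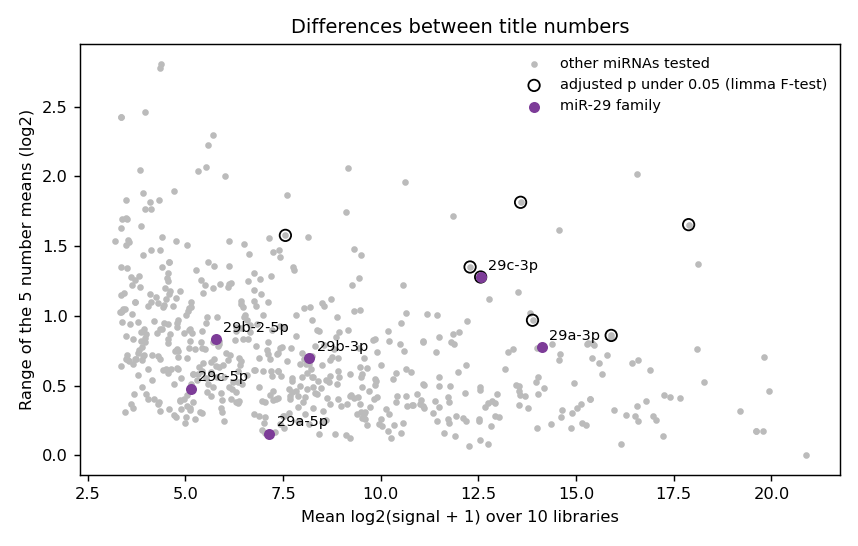
Range of the 5 title number means on the log2 scale against the mean log2(signal + 1) over 10 libraries, for the 588 miRNAs tested. Rings mark the 7 with an adjusted p under 0.05 in the limma F-test, of which miR-29c-3p, at 1.28, belongs to the miR-29 family.

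The ratio of the arms of a hairpin was taken within each library, for 3 of the 4 hairpins, since miR-29b-1-5p was below the filter. miR-29a-3p was 94.95, 99.2, 142, 142 and 162 times miR-29a-5p in right eyes 61, 64, 65, 66 and 68 and 99.2, 113, 137, 148 and 162 times in the left eyes. The eyes of a number lay close together, and both eyes of 61 and 64 lay below all eyes of 65, 66 and 68. The F-test between numbers gave an adjusted p of 0.0766 in limma and did not pass. With a filter at a mean signal of 100 it passed, at an adjusted p of 0.0116 in limma, where 35 of 97 hairpins passed. This was the 1 of 10 alternatives in which it did. With no filter on low signal its adjusted p was 0.469 in limma.

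miR-29b-3p was 3.45, 3.84, 7.09, 6.37 and 11.1 times miR-29b-2-5p in the right eyes and 3.81, 3.95, 5.29, 4.53 and 7.72 times in the left eyes. The lowest ratios again belonged to 61 and 64 and the highest to 68. The mean log2 ratio differed between numbers, with 1.84 in 61 and 3.18 in 68 (adjusted p = 0.0424 in limma). This ratio sets a 3p arm from both clusters against a 5p arm from 1 of them.

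miR-29c-3p was 123, 122, 160, 135 and 272 times miR-29c-5p in the right eyes and 155, 162, 273, 120 and 369 times in the left eyes. Number 68 was highest on both sides, and number 65 was far apart between its eyes. The mean log2 ratio lay between 6.96 in 66 and 8.27 in 68 (adjusted p = 0.0424 in limma). The 3p arm of this ratio is the member that passed by level, while miR-29c-5p did not pass (adjusted p = 0.611 in limma). The call by ratio is therefore not independent of the call by level. Of all 191 hairpins with both arms kept, 24 passed (12.6%), so a difference of arms between numbers was common. The unadjusted p was under 0.05 for all 3 miR-29 hairpins and for 58 of the 191 (30.4%). Without number 68, neither miR-29b-2 (adjusted p = 0.244 in limma) nor miR-29c (0.315) passed, and 0 hairpins did in limma, with 39 at an unadjusted p under 0.05. Without right eye 68 alone both were at 0.177, again with 0 hairpins passing in limma and 44 at an unadjusted p under 0.05. Without number 61 they were at 0.0752 and 0.0783, without number 64 both were at 0.0797, and without number 65 miR-29b-2 was at 0.0586, none of them past the threshold.

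**Figure D5:**
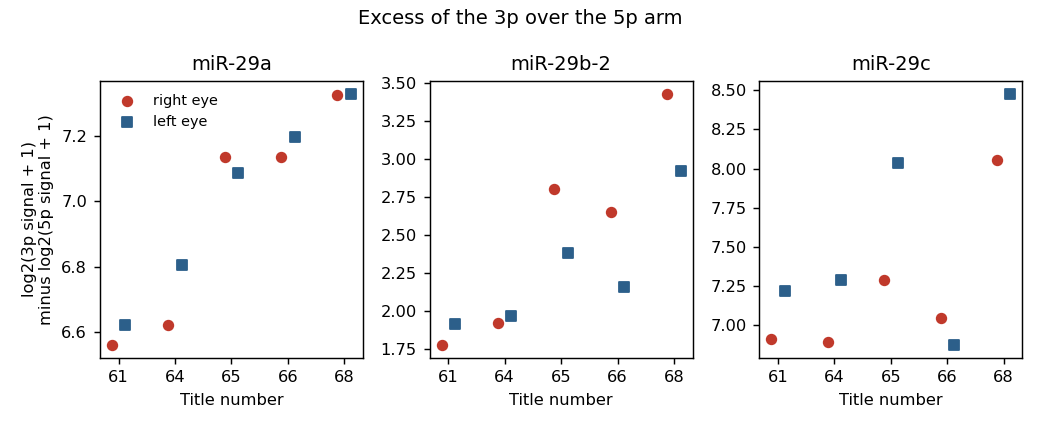
Log2 difference of the 3p and 5p arm for 3 hairpins by title number, circles for right and squares for left eyes, each panel on its own scale. The values of number 68 are the highest in all 3 panels, and miR-29b-2 has the smallest excess of the 3p arm.

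Between right and left eyes the arms did not differ past the threshold. The difference of the log2 arm ratio, right minus left, was -0.05 for miR-29a (95% interval -0.30 to 0.20), 0.25 for miR-29b-2 (-0.10 to 0.60) and -0.34 for miR-29c (-0.71 to 0.03). The adjusted p in limma was 0.976, 0.768 and 0.746 in this order. None of the 191 hairpins passed in limma (0%), and 5 (2.62%) had an unadjusted p under 0.05, with no miR-29 hairpin among them. In 71 of the 191 hairpins (37.2%), these 3 included, the 3p arm exceeded the 5p arm in each library. By mean excess of the 3p arm, miR-29c ranked 12th, miR-29a 17th and miR-29b-2 51st of the 191.

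The miRNAs outside the family whose levels moved most like miR-29a-3p were found by the root mean square difference of log2 deviations over the 10 libraries, where a small value means a like pattern. The nearest was miR-223-3p, a myeloid cell miRNA, at 0.07, followed by miR-192-5p at 0.10, miR-199a-5p of fibroblasts at 0.12, miR-340-5p at 0.13 and the leukocyte miRNA miR-142a-5p at 0.13. The median over all tested miRNAs was 0.47, and the spread of miR-29a-3p itself 0.34. For instance, miR-199a-5p had 8966, 8112, 13992, 14903 and 14343 in right eyes 61, 64, 65, 66 and 68 and 8559, 8319, 10090, 8966 and 13581 in the left eyes. Not all markers of these cell types moved this way. The log2 range of number means was 0.25 for the partner arm miR-199a-3p and 0.30 for miR-142a-3p, beside 0.78 for miR-29a-3p. Of the same lists, miR-155-5p, miR-146a-5p, miR-145a-5p and miR-214-3p had their lowest number mean in 68, where miR-29a-3p was highest. miR-150-5p and miR-142a-3p were highest in 68 too. Within the family, miR-29b-3p stood at 0.17 and miR-29c-3p at 0.24 from miR-29a-3p, nearer than its own passenger arm miR-29a-5p at 0.29 and than miR-29b-2-5p at 0.59. Among all miRNAs tested these ranked 11th, 68th, 101st and 409th in nearness, and miR-29c-5p, at 0.39, ranked 200th. Many miRNAs outside the family thus lay nearer to miR-29a-3p than miR-29c-3p did. Nearest to miR-29c-3p were miR-362-3p at 0.16, miR-340-5p at 0.19 and the imprinted miR-376b-3p at 0.21. These values describe 10 libraries that share 5 numbers.

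Other miRNAs tied to matrix and fibrosis were read from a list of 20, all of which were tested. Between right and left eyes 0 of 20 passed in limma, with 14 of 20 differences positive and a median of 0.03 on the log2 scale, beside 0.02 over all miRNAs. Between numbers 1 of 20 passed, miR-30c-5p, which is known to target the matrix growth factor CTGF. It had 42962, 50671, 84548, 79250 and 79250 in right eyes 61, 64, 65, 66 and 68 and 42962, 42962, 71843, 71843 and 65310 in the left eyes (adjusted p = 0.0261 in limma). Its low values were thus in 61 and 64, as for miR-29a-3p. The median range of number means was 0.46 in this list, below the 0.67 of all miRNAs.

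The other miRNAs that passed between numbers were of the let-7 and miR-30 families, apart from miR-664-5p. In the let-7 and miR-98 family 3 of 9 passed (let-7b-5p, let-7c-5p and let-7e-5p), and in the miR-30 5p arms 2 of 5 (miR-30b-5p and miR-30c-5p). Over all miRNAs 7 of 588 passed (1.19%). These families were listed because they varied between numbers in earlier results of these data, so the counts describe them and do not test them. The let-7 family, known for holding back growth genes, summed to 1994, 1975, 1381, 1395 and 1113 k in the right eyes and 1975, 1962, 1533, 1500 and 1338 k in the left eyes. Its sums were thus highest in 61 and 64 and lowest in 68, where the 7 miR-29 members together were highest, at 34186 in the right and 36318 in the left eye. Since each library has nearly the same total, levels of families are not independent of each other. Whether the numbers differ by litter, day, sequencing run or dissection is not in the labels, and the part of each in these differences was not tested.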

How the data were processed

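Libraries were built from a small RNA fraction with the TruSeq small RNA kit, per the labels' protocols. These speak of retinae while the tissue label says RPE/choroid/sclera, and that label was followed. The submitters' processing notes name Bowtie, Partek and GRCm38 (mm10), without versions. The deposited values are a normalised signal for 1340 miRNAs, whose normalisation method the sources used here do not give. Only 7.31% of the values above 0 were whole within 0.001, so reads could not be recovered, no count model was used and the depth of a library is unknown.

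Values were analysed as log2(signal + 1) for the 588 miRNAs with a mean of at least 10, with limma 3.58.1 in R 4.3.3, two-sided or F-tests, a mean-variance trend (not for arm ratios) and Benjamini-Hochberg adjustment over all features at 0.05. Right against left eyes had the title number as a block, since the protocol compares the eyes of a mouse. The F-test over numbers had side as a covariate. As a check of the pairing, deviations of same-numbered eyes correlated at 0.12, 0.45, 0.01, -0.13 and 0.28 in the order 61, 64, 65, 66 and 68, so the data do not establish it. Arms were paired by name into 191 hairpins. The members and lists were chosen with earlier results of these data known. The text names the 7 members, the 5 and 3 miRNAs nearest to miR-29a-3p and miR-29c-3p, and list members behind a count. The procedure was tested on simulated data.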

Additional observations from a re-analysis of the deposited data

Results flagged for a closer look

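The log2 excess of the shared miR-29b-3p over miR-29b-1-5p was 8.445 in left eye 68, far from the other 4 left eyes, which lay between 4.84 and 5.87. This is the level of miR-29b-1-5p, whose signal there was practically 0. It was the 1 value set apart in 30 checks over members, arm ratios and cluster pairs by side, where chance gives about 1 in 20.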

How the results depend on the processing

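Between right and left eyes 0 miRNAs and 0 hairpins passed in limma under every alternative run. Of 82 member values 2 turned direction, both for miR-29b-2-5p, at 0.010 without number 68 and also without right eye 68. These 2 are a single change, since left eye 68 then has no partner and both settings give the same paired estimates. The 82 values thus hold repeats. The miR-29b-2-5p difference ranged from -0.115 to 0.010 with single numbers left out. With no replicate block in place of the paired fit the counts were 0 miRNAs and 0 hairpins in limma (12 and 3 at an unadjusted p under 0.05). The count between numbers was unstable. Against 7 miRNAs it was 23 with a mean signal of at least 100, 12 with each library centred on its median, and 0 without right eye 68 (101 at an unadjusted p under 0.05 in limma). With single numbers left out it ran from 0 to 22. Without the mean-variance trend, an alternative chosen after seeing the data, it was 0 (118 at an unadjusted p under 0.05). miR-29c-3p passed in 6 of 13 alternatives, with an adjusted p between 0.0167 and 0.367. It was lost without number 61, 64, 65 or 68, without right eye 68, with ranks in place of signal (0.0564) and without the trend (0.137). Of the other members, none passed between numbers in any alternative. For arms between numbers the 24 hairpins became 0 with no filter on low signal (60 at an unadjusted p under 0.05 in limma) and 0 without right eye 68. With single numbers left out they ran from 0 to 34. With no filter miR-29b-2 and miR-29c were both at an adjusted p of 0.331. The causes of these changes were not tested. With each of the 10 libraries taken as its own value, the exact permutation p of the 3 cluster pairs was 0.00195, with the same mean differences of 1.57 for miR-29a-3p minus miR-29c-3p, -3.98 for miR-29b-1-5p minus miR-29b-2-5p and 2.0 for miR-29a-5p minus miR-29c-5p. Eyes of a number are then treated as independent. With single numbers left out these 3 ran from 1.51 to 1.68, from -4.18 to -3.64 and from 1.95 to 2.10, and the second was -5.02 at a pseudocount of 0.1 and -2.27 at 10. Read depth is unknown, so the lowest member, miR-29b-1-5p, cannot be given a detection limit.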
